A study of Mus musculus with 8 samples.

Results

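The genes described here are 10 enzymes and transporters that make, carry or remodel the lipids of the epidermal permeability barrier, namely Alox12b, Aloxe3, Elovl4, Cers3, Acer1, Ugcg, Abca12, Gba2, Smpd1 and Dgat2. They were chosen by symbol from what is known of barrier lipids, but with earlier results of these data already known. They are 10 of the 17097 genes measured, and comparing them with the shares of all genes below is therefore not a blind comparison. All 10 were represented on the array, each by 1 probe set, that with the largest average over the 8 arrays. Their levels were compared between poorly differentiated and well differentiated mouse skin squamous cell carcinomas (SCC).

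The outermost layer of the skin holds water because its dead cells are embedded in sheets of ceramide, cholesterol and free fatty acid. Keratinocytes build very long acylceramides as they differentiate, add glucose to them, pack them into lamellar bodies and secrete them. Outside the cell the sugar is removed again, and lipoxygenases oxidise the acylceramide so that it can be tied to the protein envelope of the dead cell. Loss of several of these enzymes causes ichthyosis in people and a leaky skin in mice.

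The PD-SCC group held 4 arrays of poorly differentiated tumours, called PD/S-SCC in the sample titles, and the WD-SCC group held 4 arrays of well differentiated tumours. In both groups the tumours arose spontaneously or after DMBA-TPA treatment in K14-HPV16 mice, whose human papillomavirus transgene is driven by the keratin 14 promoter of basal epithelium, on a background labelled FVB/C57/Bl6. They were then grown as orthotopic grafts in nude mice over serial transplants, and the labels do not say which tumour arose in which way or how old the mice were. Cells positive for α6-integrin and CD34, the population the study calls cancer stem cells, were sorted after depletion of blood and endothelial cells, and the protocols name no step against other cells of the nude host. There were 3 tumour lineages: OT7 had 2 arrays of each stage, and OT14 and OT15 had 1 array of each stage.

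All values are log2 RMA values, which are background-corrected and normalised intensities of 1 probe set. The scale was read from their range of 2.40 to 13.2. A level was called above background on an array where it exceeded the highest of 15 unspiked bacterial control probe sets there, which lay at 3.61 to 3.81 on the PD-SCC arrays and at 3.82 to 4.37 on the WD-SCC arrays. A further control made of 25 G or C bases also differed, with 6.66 to 7.08 on PD-SCC arrays and 8.0 to 8.53 on WD-SCC arrays. Its part in any result was not tested. One WD-SCC array went against its sort label: Cd34 was 3.58 on the OT15 WD-SCC array, under its control level of 4.37, whereas the other WD-SCC arrays had 6.72 to 7.0. Itga6, the α6-integrin gene, was also lowest there among the 8 arrays, at 5.32. Several results, among them those of the barrier lipid genes that passed the test, are therefore given with and without the OT15 lineage. The other stage comparisons over the lineages include it. Replicates of OT7 are called biological in the labels, but nothing says whether they came from separate mice, so the p-values reflect only the spread among these samples, part of which may be technical. In these bulk samples, fewer cells of a type and less RNA per cell cannot be told apart.

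The bases just upstream of 3 genes that were lower in PD-SCC are shown for their base composition and for the motifs searched in them. They are the 250 bases before the RefSeq start of each gene on GRCm38.p6, read 5′ to 3′ on the gene's own strand, and capitals mark a match to the Krüppel-like motif GGGNGTG, here found on the opposite strand.
Alox12b, chr11:69156822-69157071, plus strand: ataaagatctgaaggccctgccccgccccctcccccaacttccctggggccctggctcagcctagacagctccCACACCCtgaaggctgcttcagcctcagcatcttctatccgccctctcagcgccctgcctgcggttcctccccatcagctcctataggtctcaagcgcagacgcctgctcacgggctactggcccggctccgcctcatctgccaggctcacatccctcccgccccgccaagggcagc
Ugcg, chr4:59189300-59189549, plus strand: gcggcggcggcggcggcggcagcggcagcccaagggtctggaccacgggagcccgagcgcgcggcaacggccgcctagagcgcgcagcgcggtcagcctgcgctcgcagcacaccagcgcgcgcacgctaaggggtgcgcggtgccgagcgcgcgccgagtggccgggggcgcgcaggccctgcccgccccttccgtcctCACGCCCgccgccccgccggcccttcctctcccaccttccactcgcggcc
Gba2, chr4:43578865-43579114, minus strand: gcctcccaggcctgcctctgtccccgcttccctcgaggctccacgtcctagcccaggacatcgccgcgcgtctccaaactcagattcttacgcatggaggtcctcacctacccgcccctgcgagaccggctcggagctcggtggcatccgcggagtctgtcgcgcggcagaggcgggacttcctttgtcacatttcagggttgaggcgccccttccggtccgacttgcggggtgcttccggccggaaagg
The Ugcg window was 80.4% G or C with 43 CpG dinucleotides, the Gba2 window 66.8% with 25 CpG, and the Alox12b window 66% with 11 CpG. The median over 32851 mouse windows of that length was 52.4% with 6 CpG. Counted from the gene's start, the Krüppel-like motif began at base -177 in Alox12b and at base -50 in Ugcg. It was found in 2 of the 8 genes with an entry, against 26.1% of all windows. Elovl4, Cers3, Acer1, Abca12 and Smpd1 were the others with an entry, and Gba2 had no match. None of 4 further motifs was found in the 8 windows, both strands searched: AP-1 (TGANTCA) was in 6.75% of all windows, C/EBP (TTGCNNAA) in 9.56%, the grainyhead-like site (AACCGGTT) in 0.116% and the TATA box (TATAAA) in 12.4%. A match is a run of letters and was not tested for binding.

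Of the 10 barrier lipid genes, 5 passed the test as lower in PD-SCC cells: Alox12b, Dgat2, Gba2, Ugcg and Aloxe3. Dgat2 (57.2-fold) and Alox12b (at least 45.3-fold) had the widest gaps. Here and below, "at least" refers to the background level and leaves out the spread between arrays. Elovl4, Cers3, Smpd1, Acer1 and Abca12 did not pass. The threshold was an adjusted p of 0.05 over all 17097 genes from limma with the lineage as a block. None was higher, and none had a fitted difference above 0. Over all genes the same test called 12.6%, made up of 4.81% lower and 7.78% higher in PD-SCC. Scaling the arrays in other ways changed that split, to 864 lower and 864 higher genes with cyclic loess and to 1205 lower and 1150 higher with 75th percentile scaling, against 823 lower and 1331 higher as deposited. The median difference of the 10 genes was -1.73 on the log2 scale, against -0.06 for all genes, -0.01 for all genes with cyclic loess and -0.21 with 75th percentile scaling. Ordered by their difference from the most negative, Dgat2 ranked 30 of the 17097 genes. Without the OT15 lineage, 3 of the 5 stayed past the threshold (Alox12b, Dgat2 and Ugcg).

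**Figure D1:**
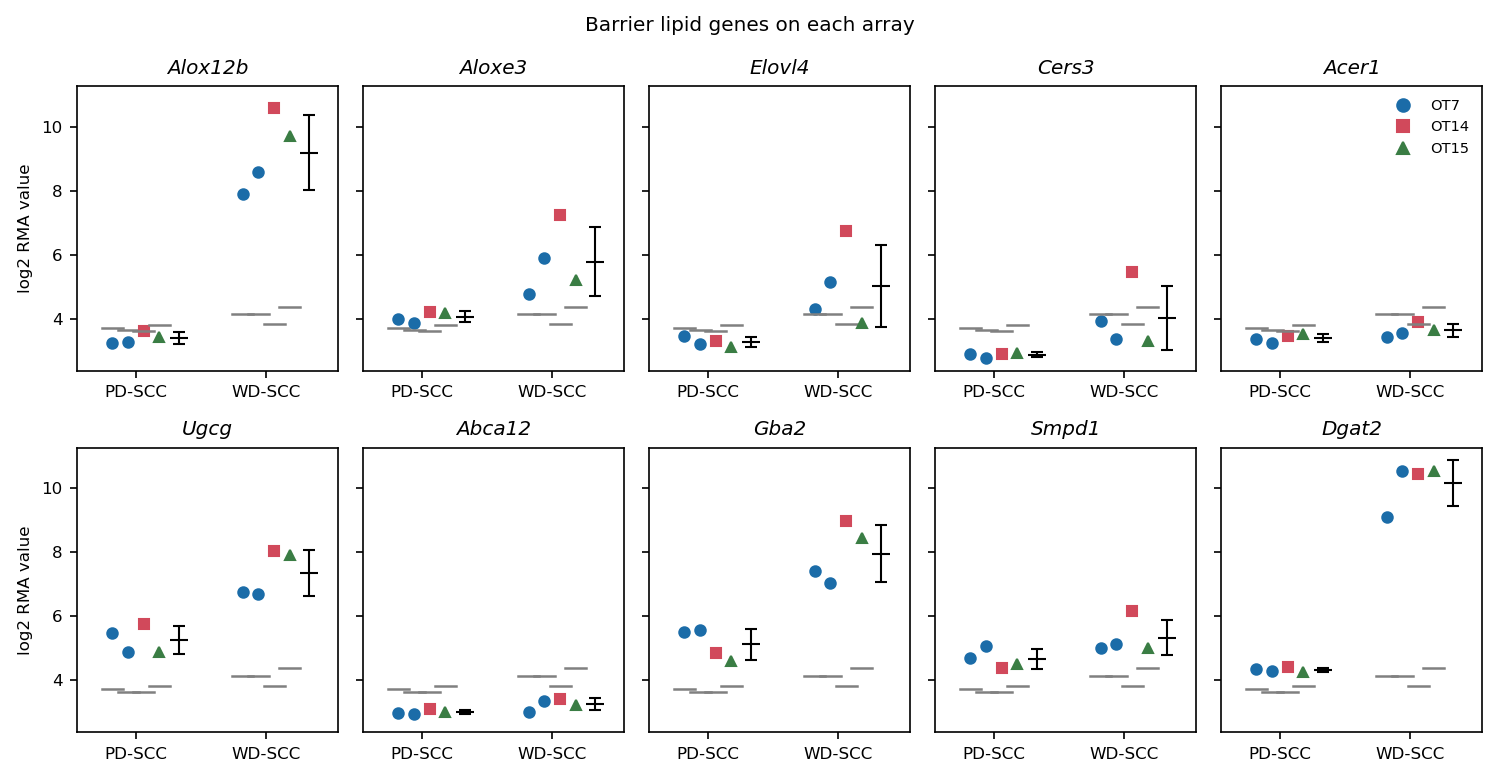
Log2 RMA value of the 10 barrier lipid genes on each array, PD-SCC left and WD-SCC right. Symbols and colours mark the lineage (circles OT7, squares OT14, triangles OT15), black bars are the mean ± SD of 4 arrays, and grey ticks are the highest unspiked control of each array. The Alox12b and Dgat2 values of the 4 PD-SCC arrays lie more than 4 log2 units under every WD-SCC value, while Abca12 lies under the grey ticks on all 8 arrays.

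Alox12b encodes the 12R-lipoxygenase, which carries out the first oxidation of the acylceramide. Its level was 3.24 and 3.26 in OT7, 3.63 in OT14 and 3.44 in OT15 PD-SCC cells, against 7.90 and 8.60 in OT7, 10.58 in OT14 and 9.72 in OT15 WD-SCC cells. The groups lay far apart, the PD-SCC arrays sat at the level of the controls, with only the OT14 array above its own, and the WD-SCC arrays of OT14 and OT15 were brighter than those of OT7. The level averaged 3.39 ± 0.18 in PD-SCC cells and 9.20 ± 1.19 in WD-SCC cells (SD, n = 4 each). The log2 difference was -5.81 (SE 0.39, limma adjusted p = 0.00217), which is partly set by background, since 3 of the 4 PD-SCC arrays were under their controls. With those arrays put at their controls, the PD-SCC level of Alox12b was lower by at least 45.3-fold. It stayed past the threshold in all 20 alternative settings, with a limma adjusted p of 0.0123 without OT15. Some of these settings are the same fit, because leaving out 1 OT14 or OT15 array equals leaving out its lineage.

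Aloxe3 encodes the epidermal lipoxygenase 3, an isomerase that acts on the product of Alox12b, and lies next to Alox12b on chromosome 11. Its level was 3.99 and 3.86 in OT7, 4.21 in OT14 and 4.19 in OT15 PD-SCC cells, against 4.77 and 5.89 in OT7, 7.25 in OT14 and 5.21 in OT15 WD-SCC cells. The groups did not overlap, the PD-SCC arrays lay close together just above their controls, and the OT14 WD-SCC array stood above the other WD-SCC arrays. The log2 difference was -1.72 (SE 0.41, limma adjusted p = 0.0488), which is 3.29-fold lower in PD-SCC. This call was the least stable of the 5. It was kept in 7 of 20 alternative settings, and leaving out any 1 array other than the first OT7 WD-SCC array, or any lineage, ended the call. The adjusted p was 0.0802 without OT15, 0.0890 without OT14 and 0.0577 without the lineage block.

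Elovl4, Cers3 and Acer1, which act on the very long acyl chain and the ceramide, did not pass the test. Elovl4, which elongates fatty acids beyond the reach of the other elongases, was 3.47 and 3.21 in OT7, 3.30 in OT14 and 3.12 in OT15 PD-SCC cells, against 4.30 and 5.16 in OT7, 6.75 in OT14 and 3.85 in OT15 WD-SCC cells. No PD-SCC array was above its control, while the 3 WD-SCC arrays of OT7 and OT14 were, and the groups did not overlap. Taken against the controls, the mean Elovl4 level of the PD-SCC arrays was under that of the WD-SCC arrays by at least 2.50-fold. This bound was computed from the mean of the WD-SCC arrays and, for each PD-SCC array, the higher of its control and the gene. It does not hold for OT15, where the WD-SCC array was also under its control, and the difference did not pass the test. The log2 difference of -1.74 (SE 0.47) had a limma adjusted p of 0.0674. It passed in 2 of 19 alternative settings, with 75th percentile scaling at 0.0355 and with a trended prior at 0.0339. A further Elovl4 probe set was above its control on the second OT7 and the OT14 WD-SCC arrays and on none of the others, and it differed by -1.30 (adjusted p = 0.262).

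Cers3, the ceramide synthase that joins the very long chain to the sphingoid base, was 2.91 and 2.77 in OT7, 2.90 in OT14 and 2.93 in OT15 PD-SCC cells, against 3.92 and 3.36 in OT7, 5.47 in OT14 and 3.31 in OT15 WD-SCC cells. Only the OT14 WD-SCC array was above its control, so no fold is given. The log2 difference was -1.14 (SE 0.38, limma adjusted p = 0.105). Acer1, the alkaline ceramidase of the epidermis, was 3.24 to 3.51 on the PD-SCC arrays and 3.44 to 3.90 on the WD-SCC arrays. These ranges overlapped and only the OT14 WD-SCC array was above its control, so no fold is given. Its log2 difference was -0.24 (limma adjusted p = 0.160), and a further Acer1 probe set was under the controls on all 8 arrays.

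Among the genes of glucosylceramide synthesis, transport and breakdown, Ugcg and Gba2 were lower in PD-SCC. Ugcg, the glucosyltransferase that adds glucose to ceramide, was 5.48 and 4.89 in OT7, 5.75 in OT14 and 4.89 in OT15 PD-SCC cells, against 6.76 and 6.68 in OT7, 8.05 in OT14 and 7.91 in OT15 WD-SCC cells. Every array was above its control and the groups did not overlap, the OT14 and OT15 WD-SCC arrays being the brightest. The mean was 5.25 ± 0.43 in PD-SCC cells and 7.35 ± 0.73 in WD-SCC cells (SD, n = 4 each). The log2 difference of -2.10 (SE 0.30, limma adjusted p = 0.0125) makes Ugcg 4.28-fold lower in PD-SCC, with a 95% interval of 2.58-fold to 7.10-fold. Of the 20 alternative settings, 18 kept the call, and it was lost without OT7 (adjusted p = 0.0574) and with the OT7 arrays averaged (0.0646). Its adjusted p was 0.0264 without OT15. The other probe sets of Ugcg gave differences of -2.75 (limma adjusted p = 0.0035) and -1.51 (adjusted p = 0.0136). On both of them the OT7 WD-SCC arrays were brighter than those of OT14 and OT15. The values were 7.63 and 7.25 against 7.03 and 6.85 on the first, and 4.95 and 4.90 against 4.68 and 3.76 on the second. The order of the lineages in WD-SCC therefore depends on the probe set.

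Abca12, the lipid transporter that fills lamellar bodies, was at 2.93 to 3.09 on the PD-SCC arrays and at 3.0 to 3.41 on the WD-SCC arrays. All 8 arrays were under their controls, so Abca12 was not above background in either stage. Its log2 difference of -0.25 had a limma adjusted p of 0.183.

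Gba2 is a glucosylceramidase that works on the cytosolic side of membranes. Gba2 was 5.51 and 5.56 in OT7, 4.84 in OT14 and 4.59 in OT15 PD-SCC cells, against 7.41 and 7.03 in OT7, 8.96 in OT14 and 8.44 in OT15 WD-SCC cells. All arrays were above their controls and the groups did not overlap. The OT7 arrays were the highest of the PD-SCC group and the lowest of the WD-SCC group. The mean was 5.12 ± 0.48 in PD-SCC cells and 7.96 ± 0.89 in WD-SCC cells (SD, n = 4 each), a log2 difference of -2.84 (SE 0.49, limma adjusted p = 0.0218) and a level 7.15-fold lower in PD-SCC. The call was kept in 12 of 20 alternative settings. It was lost without OT14 (adjusted p = 0.0576), without OT15 (0.0645), without the first OT7 PD-SCC array (0.0513) and with the OT7 arrays averaged (0.0820).

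Smpd1, the acid sphingomyelinase that frees ceramide from sphingomyelin, was 4.69 and 5.07 in OT7, 4.38 in OT14 and 4.49 in OT15 PD-SCC cells, against 5.01 and 5.13 in OT7, 6.16 in OT14 and 5.02 in OT15 WD-SCC cells. The groups overlapped, and the OT14 WD-SCC array was alone at its level. The log2 difference of -0.67 (limma adjusted p = 0.182) had a 95% interval of -1.40 to 0.06. A further Smpd1 probe set, above its control on the OT14 WD-SCC array alone, differed by -0.45 (adjusted p = 0.178).

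Dgat2 encodes a diacylglycerol acyltransferase that makes triglyceride, the store from which linoleate for acylceramide is drawn. Its level was 4.35 and 4.28 in OT7, 4.41 in OT14 and 4.25 in OT15 PD-SCC cells, against 9.09 and 10.56 in OT7, 10.45 in OT14 and 10.54 in OT15 WD-SCC cells. The PD-SCC arrays lay within 0.15 log2 units of each other, just above their controls, and 3 WD-SCC arrays were as tight while the first OT7 WD-SCC array was lower. The mean was 4.32 ± 0.07 in PD-SCC cells and 10.16 ± 0.71 in WD-SCC cells (SD, n = 4 each). The log2 difference was -5.84 (SE 0.34, limma adjusted p = 0.0015), 57.2-fold lower in PD-SCC with a 95% interval of 31.8-fold to 103-fold. All 20 alternative settings kept it, with an adjusted p of 0.0091 without OT15, and the other Dgat2 probe set gave -5.35 (adjusted p = 0.0052).

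**Figure D2:**
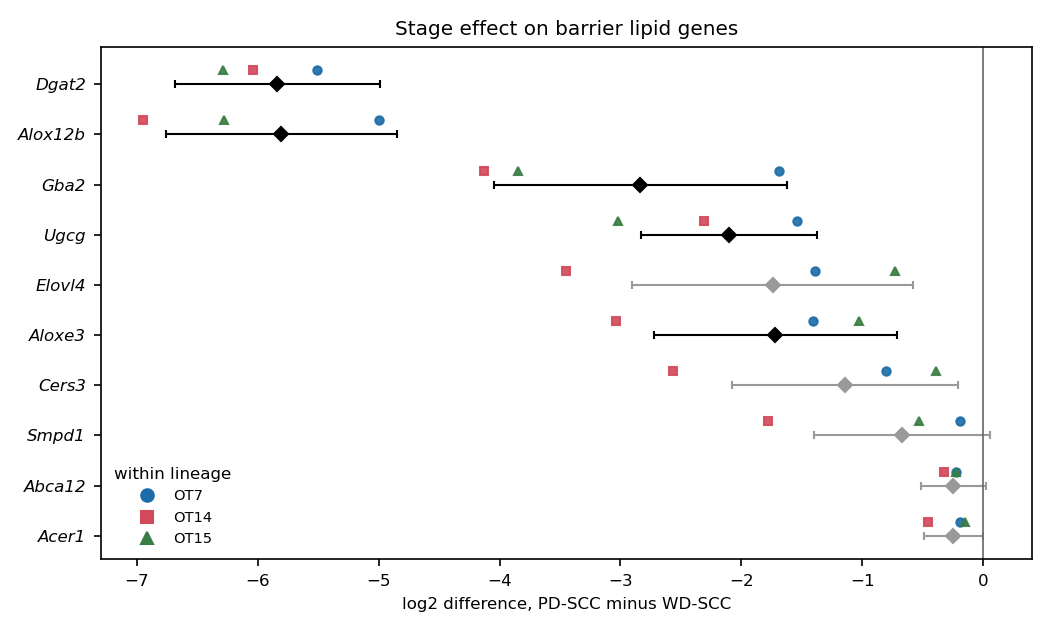
Log2 difference of each barrier lipid gene, PD-SCC minus WD-SCC. Diamonds are the fit over 3 lineages with 95% intervals, black where the adjusted p was under 0.05 and grey otherwise, and coloured symbols are the differences within each lineage. Every symbol lies left of 0, from -6.95 for Alox12b in OT14 to -0.15 for Acer1 in OT15, and the OT14 square is farthest left for 8 of the 10 genes.

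All 10 genes were lower in PD-SCC in each of the 3 lineages, where 29% of all genes had that pattern. For 7 of the 10 the PD-SCC arrays all lay under the WD-SCC arrays, against 13.3% of all genes. These counts include genes near background. With the stages compared inside each lineage, 4 of the 10 genes were called lower in OT7 (Alox12b, Dgat2, Gba2 and Ugcg), where 2.87% of all genes were. In OT14 the number was 2 (Alox12b and Gba2) against 0.661% of all genes. In OT15 Alox12b and Gba2 made up the count of 2, against 0.766% of all genes. These fits take their spread from the OT7 arrays alone. For Alox12b the OT7 difference was -5.00, the OT14 difference -6.95 and the OT15 difference -6.28. For Dgat2 they were -5.51, -6.04 and -6.29 in the same order, and for Ugcg -1.53, -2.31 and -3.02.

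OT14 showed the widest gap for most of the genes. The PD-SCC minus WD-SCC difference was the most negative in OT14 for 8 of the 10 genes and in OT15 for Ugcg and Dgat2, whereas 25.7% of all genes had their most negative difference in OT14. On the WD-SCC side, 9 of the 10 genes were highest on the OT14 array, all but Dgat2, against 20.5% of all genes. Abca12, under its control on every array, is among them, as are Cers3 and Acer1, above their controls only there. On both other Ugcg probe sets the first OT7 array was the highest of the WD-SCC arrays. The median difference of the 10 genes stood at -2.80 for OT14, -1.40 for OT7 and -0.88 for OT15, and the medians of all genes were 0.01, -0.08 and -0.07 in the same order. The test that the stage effect differs between lineages called none of the 10 and 0% of all genes. At an unadjusted p under 0.05 it counted 5 of the 10 and 2043 of all genes (11.9%). Gba2 had the lowest value of the 10, with an unadjusted p of 0.00283 and a limma adjusted p of 0.205; its difference reached -4.12 in OT14 and -3.85 in OT15, against -1.69 in OT7. A difference between lineages was therefore not shown for any of these genes.

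Of 83 further lipid genes in 7 lists, 73 were measured; 8 of them (11.0%) were lower against 4.81% of all genes, 7 (9.59%) were higher against 7.78% of all genes, and their median difference was -0.17. Without OT15 the counts were 5 lower and 6 higher, and 5 of each were also called with all arrays. Over all genes 440 were then lower and 842 higher. In the acylceramide and lipoxygenase list, 1 of 7 genes was lower and none was higher. It was Abhd5, the protein that activates triglyceride lipases for acylceramide synthesis, with a log2 difference of -2.30 (limma adjusted p = 0.0078). In the list of sphingoid base and ceramide synthesis, 2 of 17 genes were lower (1 without OT15) and 2 were higher. Degs2, which makes the phytoceramides of the skin, was at least 13.4-fold lower (limma adjusted p = 0.0056). Cers5 and Cers2, synthases of ceramides with shorter chains than those of Cers3, were higher by 1.38 (adjusted p = 0.0065) and 0.99 (adjusted p = 0.0094) on the log2 scale.

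Among 13 genes of very long chain fatty acid elongation and uptake, 2 were lower (1 without OT15) and 3 were higher. The 3 with the smallest p were Scd1, the stearoyl-CoA desaturase, higher by 1.75 (limma adjusted p = 0.0059), Elovl5, an elongase of polyunsaturated fatty acids, higher by 1.89 (0.0067), and Elovl1, an elongase of saturated chains, with a difference of -1.44 (0.0165). Elovl1 and Elovl5 thus changed in opposite directions. Among 13 genes of glucosylceramide and sphingomyelin processing, 1 was lower and 1 was higher. Gltp, a glycolipid transfer protein, had a difference of -2.34 (limma adjusted p = 0.0272) and Cert1, which carries ceramide towards sphingomyelin synthesis, one of 0.63 (0.0477). Both calls were lost without OT15, at 0.0790 for Gltp and 0.104 for Cert1.

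Of 9 genes of ceramide breakdown, only Asah1, the acid ceramidase, passed the test, and it was higher by 1.59 (limma adjusted p = 0.0210, and 0.0645 without OT15). Of 13 genes of triglyceride and wax metabolism, only Lipe, the hormone-sensitive lipase, passed, with a difference of -2.45 (limma adjusted p = 0.0135, and 0.0461 without OT15). Without OT15, Lpin1 passed too, as higher by 1.28 (adjusted p = 0.0251), a gene named after its value was seen. Sult2b1, which makes cholesterol sulphate in the granular layer, was the single measured gene of its cycle and had a difference of -4.31 (limma adjusted p = 0.0037). It was 4.30, 4.23, 3.88 and 4.26 in the PD-SCC cells of OT7 (2 arrays), OT14 and OT15, against 8.45, 9.06, 9.08 and 7.33 in WD-SCC cells. The groups of Sult2b1 did not overlap.

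**Figure D3:**
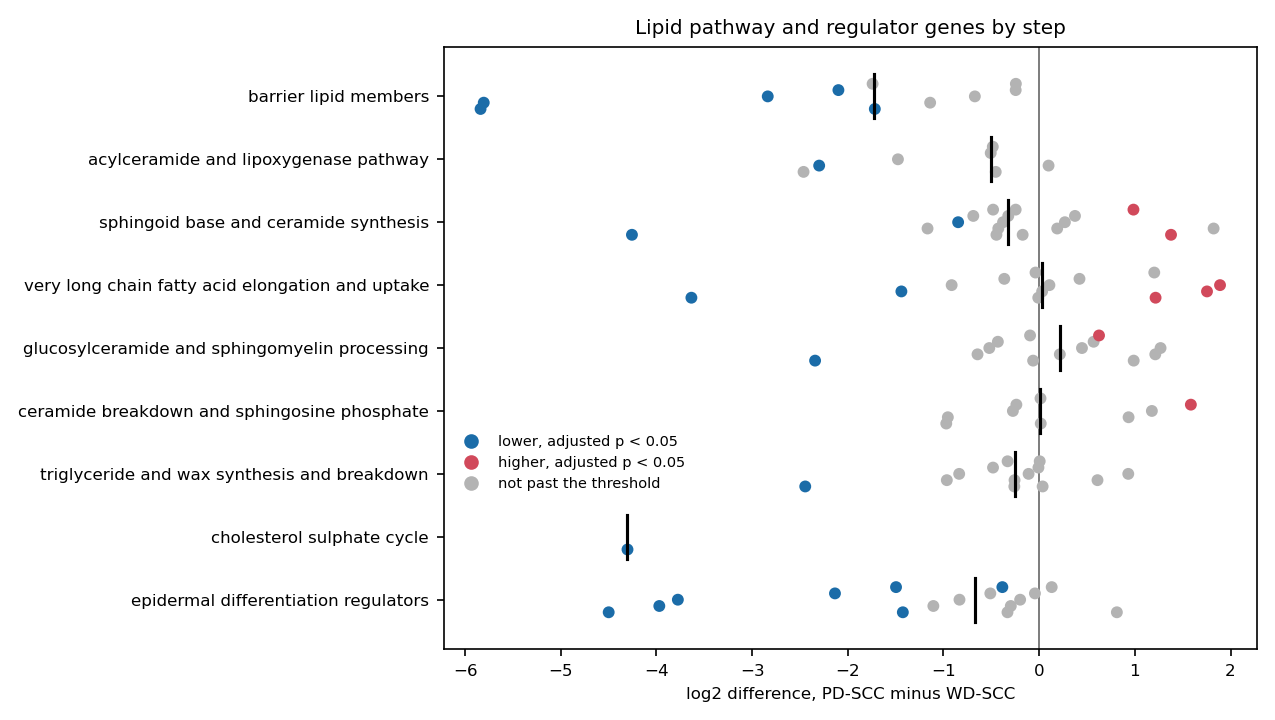
Log2 difference, PD-SCC minus WD-SCC, of every measured gene in each list. A dot is 1 gene, blue where lower and red where higher in PD-SCC at an adjusted p under 0.05 and grey otherwise, and a black line is the median of the list. The median lies at -1.73 for the 10 barrier lipid genes and between -0.51 and 0.22 for the lists of lipid steps with more than 1 measured gene.

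Of 16 measured transcription factors known to act in epidermal differentiation, 7 were lower in PD-SCC, against 4.81% of all genes. None was higher, also at an unadjusted p under 0.05, against 7.78% of all genes. Without OT15 there were 4 lower, of which 3 were among the 7. Grhl3, a grainyhead-like factor needed for barrier formation, was 3.52 and 4.76 in OT7, 3.13 in OT14 and 3.79 in OT15 PD-SCC cells, against 7.65 and 8.58 in OT7, 8.41 in OT14 and 8.55 in OT15 WD-SCC cells. The groups did not overlap, and only the second OT7 array of PD-SCC was above its control. The log2 difference was -4.50 (limma adjusted p = 0.0045). Klf4, a Krüppel-like factor of the same list, was not among the 7, with a difference of -0.51 (limma adjusted p = 0.0679). Trp63, the p63 factor of stratified epithelia, which is also among the basal markers used here, had a difference of -3.78 (limma adjusted p = 0.0070), with 1 of 4 PD-SCC arrays above its control. Ovol1, a zinc finger factor of differentiating keratinocytes, was at least 15.2-fold lower (limma adjusted p = 0.0191, and 0.0569 without OT15).

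Some keratinocyte markers were lower in PD-SCC as well. Of 10 markers of differentiated keratinocytes, 4 were lower (Tgm1, Sbsn, Ivl and Lor), with and without OT15, against 4.81% of all genes. The log2 of their summed linear signal was 7.25 to 7.74 in PD-SCC cells and 11.5 to 12.8 in WD-SCC cells, and it was highest on the OT14 WD-SCC array, where 9 of the 10 barrier lipid genes were also highest. Krt1, Flg and Casp14, of the same list, were under their controls on all 8 arrays. Of 10 basal keratinocyte markers, 6 were lower, among them neither Itga6 (-0.30) nor Cd34 (1.67), with a summed level of 9.20 to 10.1 in PD-SCC cells and 11.9 to 12.9 in WD-SCC cells. Krt5, a keratin of basal cells, had a log2 difference of -7.10 (limma adjusted p = 9.11e-05). The part of these keratinocyte signals in the barrier lipid result was not tested.

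Markers of the other cell types the sort could hold were read in the same way. Of 6 endothelial markers, 2 were lower in PD-SCC (Cldn5 and Tie1; 1 without OT15), and the summed level was 6.41 to 8.65 in PD-SCC cells and 7.17 to 10.6 in WD-SCC cells, highest on the OT14 WD-SCC array although the protocol removed endothelial cells. Of 8 haematopoietic markers, Cd68 alone was lower, and Ptprc, Adgre1 and Itgam were under their controls on all 8 arrays. Cd68 and Csf1r were above their controls on all 8 arrays, Cd14 on 3 of each stage and Cd3e on 3 PD-SCC arrays alone. Lyz2 was 8.22 on the OT14 WD-SCC array, 3.16 to 3.57 on the other WD-SCC arrays and 3.12 to 5.04 on PD-SCC arrays. The haematopoietic sum was 6.83 to 7.55 in PD-SCC cells and 8.39 to 9.29 in WD-SCC cells. Adipoq and Lep, defining markers of adipocytes, which express Dgat2, were under their controls on all 8 arrays, while Fabp4 had a difference of -3.89 (limma adjusted p = 0.0042). The sum of the adipocyte list, in which only Fabp4 was above its control on any array, was 4.61 to 5.92 in PD-SCC cells and 6.73 to 9.48 in WD-SCC cells. Of 6 sebocyte markers, 1 was lower (Cidea, a call lost without OT15) and 1 was higher (Scd1), with sums of 6.83 to 7.53 in PD-SCC cells and 6.82 to 7.30 in WD-SCC cells. None of 6 fibroblast markers passed in limma (1 at an unadjusted p under 0.05), and their sum was 9.67 to 11.6 in PD-SCC cells and 8.29 to 12.8 in WD-SCC cells. The basal keratinocyte, haematopoietic and adipocyte-list sums were also highest on the OT14 WD-SCC array. Lyz2 was the brightest haematopoietic marker there, at 8.22 against 7.48 for Cd68. The part of the endothelial, haematopoietic and Fabp4 signals in the barrier lipid result was not tested.

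**Figure D4:**
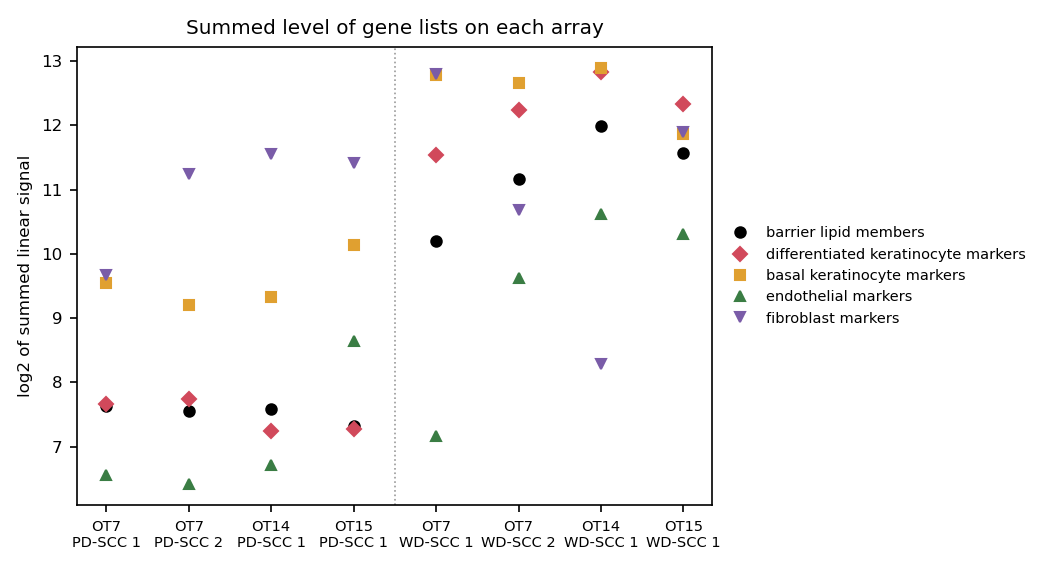
Log2 of the summed linear signal of the barrier lipid genes and of 4 marker lists on each array, PD-SCC arrays left of the dotted line and WD-SCC arrays right of it. The barrier lipid sum is 7.32 to 7.63 on PD-SCC arrays and 10.2 to 12.0 on WD-SCC arrays, and it is highest on the OT14 WD-SCC array, as are the differentiated keratinocyte, basal keratinocyte and endothelial sums, while the fibroblast sum is lowest there.

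For each of the 5 called genes, the 3 genes with the most similar profile over the 8 arrays were listed by the root mean square distance of centred log2 values. The closest to Alox12b were Tgm1 (0.248), the transglutaminase of the cornified envelope, AI661453 (0.287) and Sprr2j-ps (0.444), and Dgat2 was at rank 7 (0.539). The closest to Dgat2 were Lce3b (0.286) and Lce3c (0.303), late cornified envelope genes, and Cnfn (0.337), the cornified envelope protein cornifelin. Lce3b and Lce3c belong to a family of similar sequence, and Sprr2j-ps to the Sprr2 family, so probes may be shared between relatives. Ugcg was closest to Btbd3 (0.223), Prkcd (0.280) and Nbeal2 (0.311), and Gba2 to Rbm47 (0.330), Gne (0.340) and Hip1r (0.395). Aloxe3 was closest to Pla2g4e (0.198), an epidermal phospholipase A2, Gdpd1 (0.240) and Tlcd3a (0.254). Aloxe3 and Alox12b, neighbours on the chromosome and in the pathway, were 2.10 apart by this measure, with stage differences of -1.72 and -5.81. The values are not scaled, so a distance reflects the size of the stage difference as well as the shape of the profile. The distances describe 8 arrays that share lineages and stages.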

How the data were processed

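The authors deposited 1 log2 value per probe set for 8 single-colour arrays, and the submitters' processing notes name affy and RMA. The sources used here give neither versions nor the set of arrays normalised together. Gene names came from GEO's platform annotation, and 99.1% of Entrez numbers were found in the RefSeq table for a current symbol. The array holds 45141 probe sets: 104 controls, 28898 with 1 gene symbol, 551 with more and 15588 with none. The 10 genes had 16 probe sets of their own, 5 genes 1 each and 5 genes several, and 6 probe sets served as alternatives.

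Groups and lineages came from the labels. The stage effect was fitted with limma 3.58.1 in R 4.3.3 (lmFit and eBayes, two-sided) on all 8 arrays; lineage entered as a block (4 residual degrees of freedom), and p-values were adjusted by Benjamini-Hochberg over 17097 genes. The lineage fits had 1 coefficient per lineage and stage and 2 residual degrees of freedom. Deviations from the stage means correlated at -0.04 (OT7), 0.02 (OT14) and 0.06 (OT15) between stages, so the pairing rests on the series design. Tested on simulated data of 17097 genes, the stage fit recovered 88.5% of 200 changed genes. The number of arrays limits the precision. Tables used Python 3.11.15 and pandas 2.3.3, and plots matplotlib 3.10.9.

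Named were all 10 genes, up to 3 called genes with the smallest p in each pathway list, and the 3 nearest profiles of each called gene; markers, regulators and Sult2b1 followed their lists. The genes and lists were chosen with earlier results of these data known. Alternatives covered the block, OT7 averaging, probe sets, scaling, a filter on dim genes, the prior, array weights and leaving out arrays and lineages. Promoter windows are RefSeq's (GRCm38.p6); Aloxe3 and Dgat2 are named without one.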

Additional observations from a re-analysis of the deposited data

Results flagged for a closer look

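The gap of the highest or lowest array to its neighbour, as a share of the group's range, was compared with Dixon's 95% critical value for 4 arrays in 20 groups (10 genes in 2 stages); chance marks about 1 in 20 such groups. Dgat2 in WD-SCC cells had its lowest value, 9.09 on the first OT7 array, set off by 0.925 of the range. Smpd1 in WD-SCC cells had its highest value, 6.16 on the OT14 array, set off by 0.895. Cers3 in PD-SCC cells had its lowest value, 2.77 on the second OT7 array, set off by 0.855, with all 4 arrays under their controls.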

How the results depend on the processing

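None of 196 results, each 1 of the 10 genes in 1 of 20 alternative settings, reversed its direction; 171 kept their side of the threshold, 23 lost the call and 2 gained it. Without the replicate block (arrays not paired by lineage) 4 of the 10 genes were lower, against 5 in the main fit. Of all genes 2123 passed, 874 of them as lower, against 2154 and 823 in the main fit. With the OT7 arrays averaged, 2 of the 10 were lower and 401 of all genes passed, 199 of them as lower. In the same order the numbers were 3, 246 and 194 without lineage OT7. They were 3, 1240 and 468 without OT14, and 3, 1282 and 440 without OT15. Leaving out 1 array at a time gave 3 to 5 of the 10 genes lower. Of all genes 886 to 1689 then passed, and 338 to 731 were lower. Taking out 1 array of OT14 or OT15 removes that lineage from the comparison and gives the same fit as leaving the lineage out. The 20 settings are therefore not all distinct, and the tallies over them count these fits more than once. These settings have fewer arrays and fewer residual degrees of freedom. Cyclic loess kept 5 of the 10 lower, with 864 of all genes lower. The 75th percentile scaling and the trended prior gave 6 each, with 1205 and 992 of all genes lower. The filter on dim genes left 6 of the 10 and 9878 of all genes, of which 5 and 792 were lower. It kept genes above their controls on at least 4 arrays, which Alox12b met through its WD-SCC arrays. Counts of pathway, regulator and marker genes without OT15 were added after seeing the data. Signal under the controls limits Abca12, Acer1, Cers3 and, in PD-SCC, Elovl4 and Alox12b.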
